A study of Mus musculus with 10 samples.

Results

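The genes followed here govern hair follicle stem cells and the lineages of the growing hair, and were measured at the wound edge of diabetic mice: Lhx2, Lgr5, Sox9, Lef1, Foxn1, Msx2, Dlx3, Hoxc13, Sox21 and Tchh. They were taken from the array table by gene symbol, with the brightest feature that names a single gene, and all 10 had such a feature among 30627 genes. The arrays came from wounds of 10 male db/db mice, which carry a leptin receptor mutation (Lepr db, BKS strain, described as on a C57BL/6 background) and become obese and diabetic. The animals were 11 weeks old when caged, were shaved and treated with a depilatory cream, and then received 2 full-thickness wounds with a 4 mm punch. Around each wound, 0.5 nmol of miR-132 mimic (5 mice) or of control mimic (5 other mice) was injected with a delivery reagent, and the wound edge was taken 6 days later. All animals share the diabetic genotype, the hair removal and the delivery reagent, so neither a nondiabetic wound nor unwounded skin is part of the comparison.

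The follicle is a regenerating organ of the skin. Between growth phases its stem cells rest in the bulge and the hair germ below it; in the growth phase, anagen, their progeny form a matrix from which the hair shaft and the inner root sheath differentiate. Lhx2, Sox9 and Lgr5 are known from the stem cell compartments, Lef1, Msx2, Dlx3, Foxn1, Hoxc13 and Sox21 from the matrix and the differentiating shaft, and Tchh encodes trichohyalin, a structural protein of the inner root sheath and the medulla. Wound epidermis is also fed by follicle stem cells, and some of these genes, Foxn1 and Dlx3 among them, are active in the epidermis between follicles as well.

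The reference sequences from RefSeq (assembly GRCm38.p6) shown here are the mature 3′ strand of mouse miR-132, the strand usually meant by the name, and the promoters of the pair of genes with the largest average differences. The labels do not say which strand the mimic carries. The seed of the microRNA, bases 2 to 8, is in capitals.
mmu-miR-132-3p: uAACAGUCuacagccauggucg
In the promoters, which run from 250 bases before to 50 bases after the annotated start, capitals mark 2 short motifs searched on both strands. They are CTTTGA, the core bound by LEF and TCF factors (TCAAAG on the other strand), and TAATTA, a core of many homeodomain factors, which reads the same on both strands.
Foxn1, chr11:78386559-78386858, minus strand: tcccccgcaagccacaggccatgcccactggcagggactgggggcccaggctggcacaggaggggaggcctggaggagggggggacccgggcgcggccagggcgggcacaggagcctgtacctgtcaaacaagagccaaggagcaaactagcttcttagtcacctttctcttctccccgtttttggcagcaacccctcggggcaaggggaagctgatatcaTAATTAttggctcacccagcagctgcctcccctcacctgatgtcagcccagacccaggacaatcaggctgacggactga
Tchh, chr3:93442080-93442379, plus strand: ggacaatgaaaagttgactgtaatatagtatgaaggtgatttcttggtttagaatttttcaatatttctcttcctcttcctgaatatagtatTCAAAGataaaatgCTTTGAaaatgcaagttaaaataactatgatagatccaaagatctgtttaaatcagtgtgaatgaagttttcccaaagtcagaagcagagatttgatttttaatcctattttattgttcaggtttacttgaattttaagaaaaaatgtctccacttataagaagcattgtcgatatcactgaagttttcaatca
The Foxn1 window is set on a start that lies inside the annotated gene, whose outermost 5′ end is further upstream. It held 1 TAATTA, 29 bases before that start and also within the gene's outer bounds, and 0 CTTTGA, and 62.7% of its bases were G or C. The Tchh window held 2 CTTTGA, 158 and 144 bases before the start on opposite strands, 0 TAATTA, and 28.7% G or C. Over 32851 mouse promoters of 300 bases, 16% held at least 1 CTTTGA, 1.73% held 2 or more and 5.29% held TAATTA. These matches describe letters in the window and are not shown binding sites. Promoters of 6 of the 10 genes were matched.

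Of the follicle genes, 7 lay above the level at which genes were tested, and 0 of them differed between miR-132 and control wounds past the threshold. That level is the median of all features, 4.17 on the log2 scale, and Lef1, Msx2 and Hoxc13 lay below it. With limma, 0 of 17561 genes (0.0%) passed an adjusted p of 0.05, and at an unadjusted p under 0.05 stood 1419 genes (8.08%), 5.62% of all genes lower with miR-132 and 2.46% higher. Of the 7 follicle genes, 0 had an unadjusted p under 0.05. By the exact permutation test 0 genes passed adjustment and 1264 (7.2%) had an unadjusted p under 0.05, again with 0 of the 7 among them. With miR-132, 6 of the 7 averaged lower and 1 higher (5 and 2 after quantile normalization, where Lgr5 turned), with a median difference of -0.07, beside 9576 lower and 7985 higher and a median of -0.02 over all genes tested. The groups overlapped for all 7, while 0.649% of all genes did not overlap and were lower and 0.279% did not overlap and were higher.

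**Figure D1:**
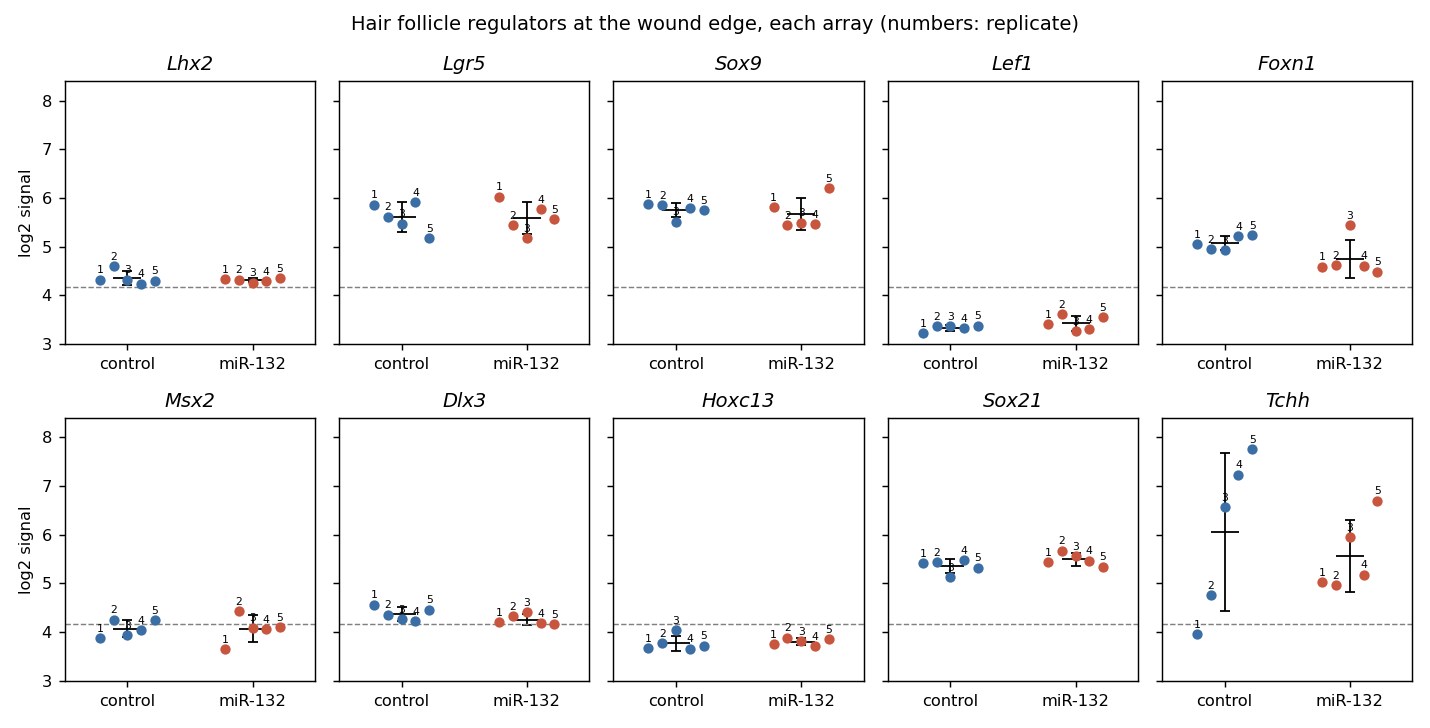
Log2 signal (vertical axis) of each follicle gene on each array of the control and miR-132 groups (horizontal axis). Points are mice with their replicate number, black bars show mean and SD, and the dashed line is the level filter at 4.17. Lef1 and Hoxc13 lie below the line on every array, Tchh spans the widest range, and miR-132 replicate 3 stands above the other miR-132 arrays for Foxn1.

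The arrays carry 23 features of background probes sorted by base composition, whose means ran from 2.48 to 5.14 with a median of 3.23. The means of the follicle genes ran from 3.38 for Lef1 to 5.81 for Tchh, so 6 of the 10 lay within the span of background features, and a low value on this array cannot be read as absence. The wound-edge biopsies held skin tissue by their markers: the basal keratins Krt5 and Krt14 stood at or near the upper limit of the scale, 19.93, and 9 of 9 measured fibroblast markers and 10 of 10 macrophage markers were above the level filter. So were 9 of 9 measured adipocyte and 10 of 10 skeletal muscle markers. Their list means differed widely between arrays, from 8.41 to 12.05 for adipocyte and from 9.725 to 13.23 for muscle markers. In bulk tissue, fewer cells of a type and less RNA per cell cannot be told apart. Arrays of miR-132 replicates 2 and 5 had the narrowest range between the 10th and the 90th percentile (4.41 and 4.63, against 4.81 to 5.03 on the other arrays) and the highest mean of the background features (3.52 on both, against 3.28 to 3.43).

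Among the stem cell genes, Sox9, a transcription factor needed for the bulge and the outer root sheath, was measured at 5.87, 5.85, 5.51, 5.79 and 5.75 on control replicates 1 to 5. With miR-132 it was 5.81, 5.44, 5.49, 5.46 and 6.20. The groups overlapped, and the top value belonged to miR-132 replicate 5. The difference was -0.07 ± 0.15 (SE, n = 5 per group; 95% interval -0.41 to 0.26), with limma's adjusted p at 0.920. Lgr5, the R-spondin receptor of the lower bulge and hair germ, was measured at 5.86, 5.62, 5.47, 5.92 and 5.17 in controls and at 6.03, 5.44, 5.17, 5.77 and 5.56 with miR-132. The ranges nearly coincided, with a difference of -0.01 ± 0.18 (SE, n = 5 per group; -0.42 to 0.40; limma's adjusted p of 0.995) that turned to 0.02 after quantile normalization. Lhx2, a LIM homeodomain factor that keeps bulge cells in the resting state, stayed between 4.24 and 4.60 on all arrays. Its highest value was control replicate 2 at 4.60, and the remaining 9 arrays lay between 4.24 and 4.35. The difference was -0.04 ± 0.07 (SE, n = 5 per group; -0.20 to 0.11), and it was 0.017 without control replicate 2 and 0.0020 after median centring. The intervals thus leave room for changes of either sign in Sox9, Lgr5 and Lhx2. With a mean of 4.33, Lhx2 lay near the level filter, so its narrow spread cannot be read as an unchanged gene.

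Foxn1, the forkhead factor whose loss gives the nude mouse, was measured at 5.05, 4.95, 4.93, 5.22 and 5.24 in controls (feature TC1100003295.mm.1). With miR-132 it was 4.59, 4.62, 5.44, 4.61 and 4.49. The other 4 miR-132 arrays therefore lay below every control, and replicate 3 lay above every control. Controls averaged 5.08 ± 0.15 and miR-132 wounds 4.75 ± 0.39 over all arrays (SD, n = 5 each), a difference of -0.33 ± 0.17 (SE; 95% interval -0.71 to 0.06), 1.26-fold lower on average. The adjusted p from limma was 0.654, not past the threshold (unadjusted 0.0855; exact permutation p of 0.127, two-sided). Without miR-132 replicate 3 the difference was -0.50 ± 0.08 (SE, n = 4 and 5), 1.41-fold lower, with an adjusted p of 0.0499, and 55 genes (0.313% of those tested, all lower) passed with limma. In that set of arrays the groups did not overlap for 5.02% of genes that were lower. With quantile normalization as well, Foxn1 differed by -0.52 with an adjusted p of 0.0642, and 0 genes passed (0.0%). Without miR-132 replicates 2 and 5 the difference was -0.20 (limma's adjusted p of 0.843).

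**Figure D2:**
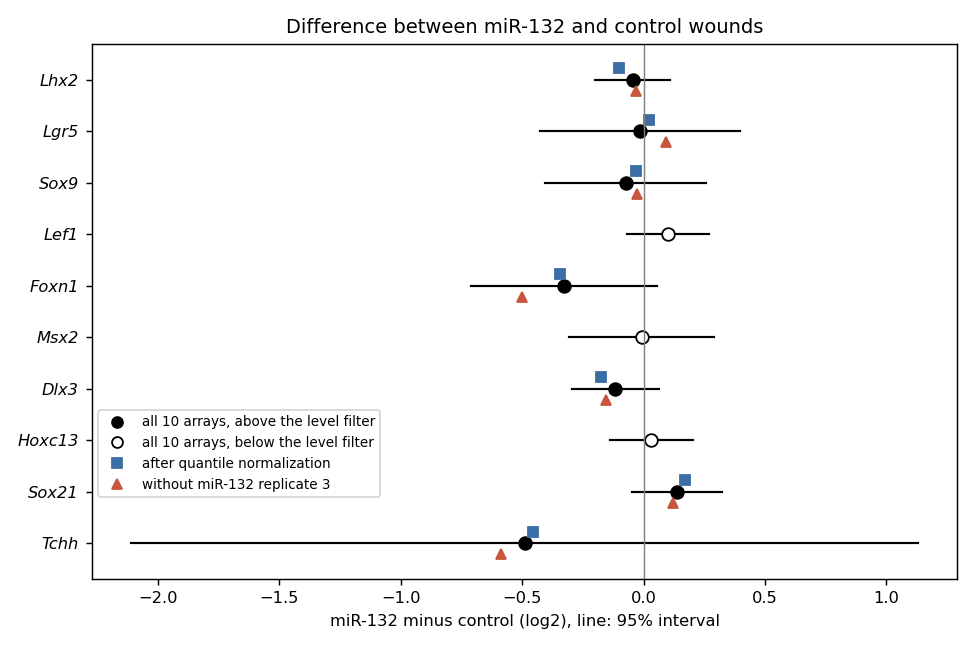
Difference between miR-132 and control wounds on the log2 scale (horizontal axis) for each follicle gene (vertical axis). Circles give the estimate over all arrays with its 95% interval, filled for genes above the level filter and open for those below it; squares give the value after quantile normalization and triangles that without miR-132 replicate 3. All intervals include 0, and the triangle of Foxn1 lies at -0.50.

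Marker lists on miR-132 replicate 3 were compared with those on the other 4 miR-132 arrays. Suprabasal keratinocyte markers averaged 12.68 there, within the 12.45 to 14.28 of the others, and sebaceous gland markers 8.97, within 8.83 to 10.30. Basal keratinocyte markers averaged 11.86, just above the 11.47 to 11.81 of the others. Replicate 3 was the lowest miR-132 array for adipocyte (8.73 against 9.25 to 12.05), endothelial (6.19 against 6.62 to 7.14) and fibroblast markers (12.96 against 13.03 to 13.94). The same held for melanocyte markers (4.89 against 4.965 to 5.34) and bulge and hair germ genes (6.49 against 6.62 to 6.85). Macrophage, neutrophil, muscle, dermal papilla and inner root sheath lists lay within the others' range, and the signalling list just above it (5.99 against 5.81 to 5.96). The 5 hair shaft genes above the filter averaged 5.25 against 4.25 to 4.76, and this rested mainly on Psors1c2, at 8.84 against 3.80 to 7.21. The others were close to the remaining miR-132 arrays: Prr9 at 4.62 (4.01 to 4.55), Krt86 at 4.41 (4.06 to 4.30) and Krt33b at 4.28 (4.04 to 4.17), while S100a3 was lowest there, at 4.11. The part of these markers in the Foxn1 values was not tested.

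The genes whose pattern over the 10 arrays was most like that of Foxn1 were Pnpla1, which encodes an enzyme of epidermal barrier lipids (Pearson r of 0.989), the epidermal transcription factor gene Tfap2a (0.985) and the protocadherin gene Pcdh1 (0.984). They were picked as the highest r among all genes tested, so these values describe likeness over these arrays and carry no test. After quantile normalization the r values were 0.993, 0.976 and 0.971. Pnpla1 was measured at 7.29 to 8.05 in controls, at 6.20 to 6.79 on miR-132 replicates 1, 2, 4 and 5 and at 8.45 on replicate 3. Tfap2a followed with 7.60 to 8.37, 6.61 to 7.0 and 8.92. Neither differed past the threshold over all arrays (-0.77 ± 0.39 and -0.72 ± 0.41, SE; limma's adjusted p of 0.641 and 0.676). Without miR-132 replicate 3 their limma adjusted p-values were 0.0511 for Pnpla1, 0.0457 for Tfap2a and 0.106 for Pcdh1.

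**Figure D3:**
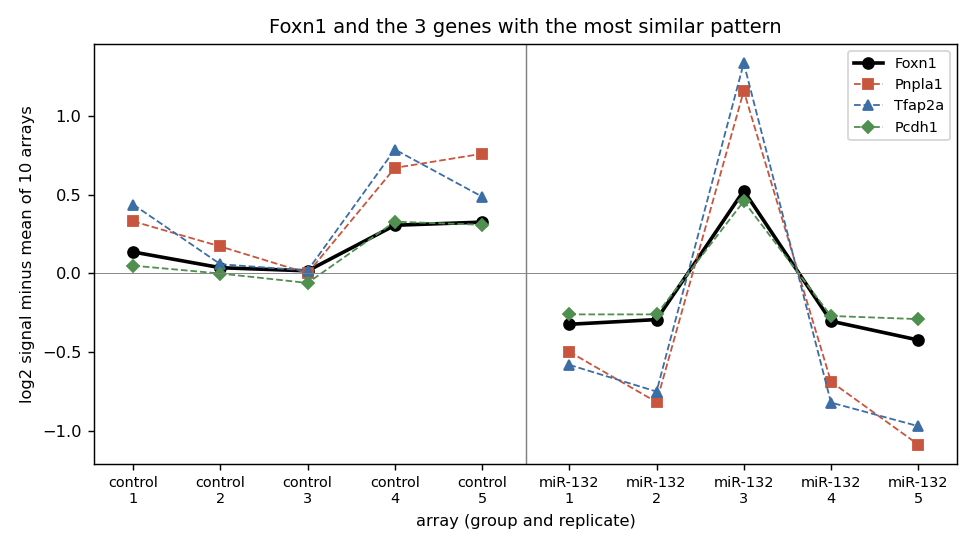
Log2 signal minus the mean of the 10 arrays (vertical axis) for Foxn1 and the 3 genes with the highest Pearson r to it, by array (horizontal axis, group and replicate). Lines join the points of a gene within a group and imply no order of the mice. All 4 genes lie lowest on miR-132 replicates 1, 2, 4 and 5 and highest on replicate 3.

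Dlx3, a homeodomain factor of the shaft and root sheath that also acts in the upper epidermis, was measured at 4.56, 4.36, 4.27, 4.22 and 4.46 in controls. With miR-132 it was 4.2, 4.33, 4.41, 4.18 and 4.17. Both sets lay close to the level filter and overlapped, with a difference of -0.12 ± 0.08 (SE, n = 5 per group; 95% interval -0.29 to 0.06; limma's adjusted p of 0.718). Sox21, which is needed for the hair cuticle, was the only one of the 7 with a higher average under miR-132. It was measured at 5.41, 5.44, 5.13, 5.48 and 5.32 in controls and at 5.43, 5.67, 5.56, 5.47 and 5.34 with miR-132. Its difference of 0.14 ± 0.08 (SE, n = 5 per group; -0.05 to 0.32) missed the threshold (adjusted limma p, 0.684).

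The 3 dim genes were fitted only without the level filter, where 0 of all genes passed limma's adjustment. Lef1, the Wnt pathway's partner of beta-catenin in the matrix, lay between 3.22 and 3.38 in controls and between 3.27 and 3.62 with miR-132. Its highest values were miR-132 replicates 2 (3.62) and 5 (3.56), the arrays with the highest background features. Its difference was 0.10 ± 0.08 (SE, n = 5 per group; limma's adjusted p of 0.674) and -0.004 without those arrays. Over the 10 arrays Lef1 and the mean of the background features had a Pearson r of 0.793 and a Spearman rho of 0.717 (permutation p of 0.00765 and 0.0232, adjusted 0.0765 and 0.230 over the 10 genes), and r was 0.220 without those 2 arrays, so the relation rests on them. Shh, also below the level filter, was highest on those 2 arrays too (4.39 and 4.34, against 3.86 to 3.98 elsewhere), whereas Hoxc13 was highest on control replicate 3. What raised Lef1 there was not tested. Hoxc13, a homeobox gene required for shaft keratins, ranged from 3.66 to 4.04 in controls and from 3.71 to 3.89 with miR-132, a difference of 0.03 ± 0.08 that turned to -0.05 after quantile normalization. Msx2, a homeobox gene of the matrix, ranged from 3.88 to 4.26 and from 3.65 to 4.43, a difference of -0.01 ± 0.13 (SE, n = 5 per group for both).

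Tchh was the most variable of the follicle genes (feature TC0300000849.mm.1). It was measured at 3.96, 4.76, 6.57, 7.23 and 7.75 on control replicates 1 to 5 and at 5.03, 4.96, 5.95, 5.18 and 6.70 on those of miR-132. Controls thus held both the lowest and the highest value, a span of 3.79 on the log2 scale, and enclosed every miR-132 array. Controls averaged 6.05 ± 1.63 and miR-132 wounds 5.56 ± 0.75 (SD, n = 5 each), a difference of -0.49 ± 0.73 (SE; 95% interval -2.11 to 1.13) with limma's adjusted p at 0.880. The value rests on single controls: it was -1.01 without control replicate 1, -0.81 without control replicate 2, -0.20 without control replicate 4 and -0.07 without control replicate 5, and -0.77 without miR-132 replicate 5. None of these passed limma's adjustment (0.778 to 0.996).

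Some keratins of the inner root sheath, the layer in which trichohyalin is made, were raised on some of the same arrays. Krt71 was 6.76 on miR-132 replicate 5, 5.65 on control replicate 5 and 4.87 on control replicate 3, while the remaining 7 arrays had 3.86 to 4.39; it was singled out after its values were seen. Krt25 was likewise highest on miR-132 replicate 5 (6.34), control replicate 5 (5.80) and control replicate 3 (4.98), and 4.07 to 4.88 elsewhere. Tchh on these 3 arrays was 6.70, 7.75 and 6.57. Control replicate 4 differed, with Tchh at 7.23 beside Krt71 at 3.87 and Krt25 at 4.17. Other sheath keratins matched less closely. On miR-132 replicate 2, where Tchh was 4.96, Krt27 was 5.00 and Krt28 4.92, above their 4.92 and 4.66 on control replicate 3. Below the level filter, Krt73 was 4.68 and 4.28 on miR-132 replicates 5 and 2, but 3.99 and 4.04 on control replicates 3 and 5. Krt26 stayed between 3.32 and 3.63 on all arrays. Over the 10 arrays Tchh and the mean of the sheath list had a Pearson r of 0.601 and a Spearman rho of 0.491 (permutation p of 0.0651 and 0.155, adjusted 0.456 and 0.521 over 56 relations of 7 genes with 8 lists), and r was 0.277 without the 2 arrays farthest from the median of the list.

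**Figure D4:**
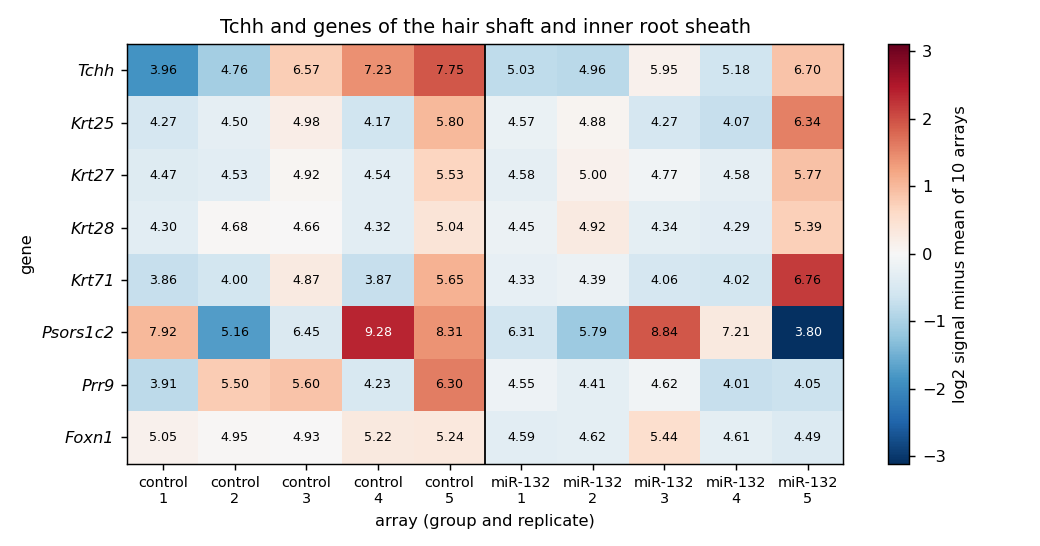
Tchh, 4 keratin genes of the inner root sheath, 2 genes of the hair shaft list and Foxn1 (vertical axis) on each array (horizontal axis, group and replicate). Numbers are log2 signal and colours the signal minus the gene's mean over 10 arrays. Tchh reaches 7.75 on control replicate 5, and Krt71 reaches 6.76 on miR-132 replicate 5; raised arrays are found in both groups.

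No pair of follicle genes had a correlation past adjustment over the 10 arrays. Of 21 pairs among the 7 genes above the filter, 9 had a Pearson r above 0, and r ran from -0.42 (Lgr5 and Tchh) to 0.61 (Foxn1 and Dlx3). The lowest adjusted permutation p was 0.895 for r and 0.216 for rho, 0 pairs passed after quantile normalization, and 0 had an unadjusted permutation p under 0.05 for r. For Foxn1 and Dlx3 the permutation p was 0.0598 for r and 0.0103 for a Spearman rho of 0.782, and r was 0.506 without the 2 miR-132 arrays farthest from the median of Foxn1 and 0.491 with group means removed; after quantile normalization it was 0.732. Against the 8 gene lists, 0 of 56 relations passed. By Pearson r, the smallest p was that of Foxn1 and the mean of the 5 hair shaft genes, among which Psors1c2 had the widest range. Here r was 0.816 and rho 0.830 (permutation p of 0.00353 and 0.00479, adjusted 0.191 and 0.0794), and r was 0.811 without the 2 arrays farthest from the list median. Psors1c2 weighs heavily in that mean, as it ran from 3.80 to 9.28 and Krt86 only from 3.99 to 4.83. Krt86 was lowest on control replicate 4, where Psors1c2 was highest. The relation of Foxn1 to the shaft genes without Psors1c2 was not tested. By rho, the smallest p was that of Dlx3 and the basal keratinocyte markers, with rho of 0.842 (permutation p of 0.00358, adjusted 0.0794) and r of 0.608. Foxn1 and those basal markers had a rho of 0.806 (permutation p of 0.00709, adjusted 0.0794), with r of 0.563, and 0.346 with group means removed. Dlx3 and the signalling list had the same adjusted p (rho of 0.806, permutation p of 0.00695). So did Dlx3 and the dermal papilla list, in the opposite direction (rho of -0.806, permutation p of 0.00709). With groups of 5, no correlation was taken within a group.

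For the other genes, likeness is given by the highest r among all genes tested, over 10 arrays and with no test. It was 0.967 for Sox9 with Tstd2, 0.907 for Lgr5 with Nuak1, a kinase gene, 0.964 for Lhx2 with Nhlrc1, 0.910 for Dlx3 with Osbpl5, 0.937 for Sox21 with 0610009L18Rik and 0.905 for Tchh with Mt1, a metallothionein gene. The next were Inf2 (0.916) and Pkd1 (0.897) for Sox9, Rnf168 (0.901) and Wdr43 (0.901) for Lgr5, and Gm25784 (0.935) and Ube2l6 (0.920) for Lhx2. They were Baiap2 (0.898) and Pex10 (0.898) for Dlx3, the Wnt receptor gene Fzd10 (0.908) and Trmu (0.887) for Sox21, and Slc9a3r2 (0.891) and 6330407A03Rik (0.885) for Tchh.

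Wider lists of follicle genes gave 0 genes past the adjusted threshold of limma. Of 21 measured hair shaft keratins and shaft proteins, 16 lay below the level filter; of the 5 above it 4 averaged lower and 1 higher with miR-132, with a median of -0.09 and 0 at an unadjusted p under 0.05. Its brightest members were Psors1c2 at -1.03 ± 1.0, Prr9 at -0.78 ± 0.42, S100a3 at 0.13 ± 0.18 and the shaft keratin gene Krt86 at -0.09 ± 0.15 (SE, n = 5 per group). Leaving out single arrays moved Psors1c2 from -1.65 to -0.39 and Prr9 from -1.08 to -0.48. Of 12 measured inner root sheath and companion layer genes, 6 were above the filter, 1 lower and 5 higher, with a median of 0.08. Cux1, a homeodomain factor, stood at -0.28 ± 0.10 (unadjusted limma p of 0.0173, adjusted 0.597), and the sheath keratin genes at 0.14 ± 0.27 (Krt27), 0.08 ± 0.45 (Krt25) and 0.08 ± 0.23 (Krt28). Without miR-132 replicates 2 and 5 these keratins turned to -0.15, -0.44 and -0.24.

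Of 20 measured bulge, hair germ and isthmus genes, 19 were above the filter, 13 averaged lower and 6 higher (median of -0.04, and 0.0060 after quantile normalization), and 3 had an unadjusted p under 0.05, all lower, where 5.62% of all genes were. The brightest was Plet1, a surface protein gene of the upper isthmus of the follicle. It was measured at 11.89, 13.67, 13.24, 11.43 and 15.49 in controls and at 11.10, 10.46, 11.30, 9.20 and 10.33 with miR-132. Every miR-132 array lay below every control, by 0.13 at the nearest, as for 0.649% of all genes. The average was 6.35-fold lower, a difference of -2.67 ± 0.73 (SE, n = 5 per group). Which cells of the bulk tissue carry the Plet1 RNA cannot be read from these arrays. The Plet1 difference did not pass (unadjusted limma p of 0.00479, adjusted 0.597, and exact permutation p of 0.00794, the smallest this design allows). Without control replicate 5, the array with the highest value, Plet1 was 4.23-fold lower, and without control replicate 4 it was 8.54-fold lower. The other 2 with a small limma p were the P-cadherin gene Cdh3 at -0.81 ± 0.31 and Nfatc1, a factor of quiescent bulge cells, at -0.23 ± 0.08. Their exact permutation p was 0.0556 for Cdh3 and 0.0317 for Nfatc1. Cdh3 was split as Foxn1 was, at 8.17 on miR-132 replicate 3, above the controls at 7.63 to 8.09, and at 6.20 to 7.24 on the other miR-132 arrays. The Cdh3 difference was -1.09 without replicate 3 and -0.50 without miR-132 replicates 2 and 5. Cd34, a bulge marker that other skin cells also carry, stood at 0.13 ± 0.48, Nfib, a factor of the bulge, at -0.19 ± 0.19, and Krt15, a bulge keratin gene, at -0.02 ± 1.06 (SE, n = 5 per group). Krt15 ranged from 5.98 to 10.24 in controls and from 5.74 to 10.96 with miR-132, and its difference turned to 0.09 after quantile normalization.

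Signalling genes split. Of 28 measured Wnt, Shh, Bmp and Eda pathway genes, 14 were above the filter, 6 lower and 8 higher (median of 0.03, and -0.0044 after quantile normalization). An unadjusted limma p under 0.05 was found for 2, both lower, where 5.62% of all genes were. They were Ovol1, an epithelial transcription factor gene downstream of Wnt signals, at -1.15 ± 0.43, and the ligand gene Bmp7 at -0.57 ± 0.24 (limma's adjusted p of 0.597 for both). The exact permutation p was 0.0397 for Ovol1 and 0.0952 for Bmp7. Ovol1 reached 8.90 on control replicate 5, with the remaining controls at 7.85 to 8.11, and was 5.82 to 8.39 with miR-132, highest again on replicate 3. Among the miR-132 arrays Bmp7 was also highest on replicate 3, at 5.59. The receptor genes Bmpr1a (0.14 ± 0.18), Smo (-0.11 ± 0.11) and Lgr4 (0.15 ± 0.22) made up the other bright members. Of 16 measured dermal papilla genes, the signalling fibroblasts at the follicle base, 11 were above the filter, 4 lower and 7 higher (median of 0.09). An unadjusted limma p under 0.05 was found for 1, the homeobox gene Alx4 at 0.20 ± 0.08 (exact permutation p of 0.0397). Of all genes, 2.46% had such a p and were higher. The brightest were Crabp1 (-0.01 ± 0.60), Vcan (0.33 ± 0.37), Prdm1 (-0.49 ± 0.29) and Fgf7 (-0.03 ± 0.23), of which Crabp1 and Fgf7 turned to 0.11 and 0.04 after quantile normalization. The SE values of this paragraph are from limma with n = 5 per group.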

How the data were processed

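Wound-edge RNA (150 ng per sample) was read on Affymetrix mouse Clariom D arrays, 1 per mouse. The authors processed the arrays by RMA in Affymetrix Expression Console 1.4, per the submitters' processing notes. The deposited values are taken as log2 signal because their upper limit, 19.93, is the log2 of 1000000; the labels do not state the scale. No genome build is named in the labels. Of 72688 features, 31080 named 1 gene, 1670 several and 39938 none; 1439 symbols were updated or merged through gene identifiers. The brightest feature per gene was kept, and genes with a mean above 4.17 were tested. limma 3.58.1 in R 4.3.3 (lmFit, eBayes with an intensity trend, no covariate, two-sided, Benjamini-Hochberg over all genes tested) compared the groups; the code was tested on simulated data. The number of arrays limits the precision. Correlations used 100000 permutations. SciPy 1.17.1 was used.

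The 10 genes and the lists were chosen with earlier results of these data known. Named list genes are the 4 brightest of each list above the filter. Genes singled out beyond that rule (Krt71, Krt73, Krt26, Cdh3, Nfatc1, Bmp7, Shh, Alx4, Dct and the other shaft keratin and Krtap genes) were chosen after their values were seen. The relations of follicle genes with lists and with background features were added after seeing the data. Every value column matched a sample, and no arrays were identical. Alternatives changed the level filter, the normalization, the trend, the weights, the features, covariates, the arrays and a replicate block.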

Additional observations from a re-analysis of the deposited data

Results flagged for a closer look

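In 3 cases a value stood far from the rest of their group of 5, out of 60 groups checked over the follicle genes and the named list genes; chance flags about 1 group in 20. Foxn1 was 5.44 on miR-132 replicate 3, against 4.49 to 4.62 on the other miR-132 arrays. Lhx2 was 4.60 on control replicate 2, against 4.24 to 4.32 on the other controls. Ovol1 was 8.90 on control replicate 5, against 7.85 to 8.11 on the other controls.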

How the results depend on the processing

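Of the 7 follicle genes above the filter, Foxn1, Dlx3, Sox21 and Tchh kept their direction under all alternatives run, from -0.52 to -0.20, -0.22 to -0.07, 0.08 to 0.24 and -1.01 to -0.07. Changes of the level filter, the trend, the test or the replicate block leave the difference itself as it was and could not turn a sign. The same holds for the mean of all features of a gene, since each follicle gene had a single one. The count of genes past adjustment was 0 under all alternatives except one: leaving out single arrays it ran from 0 to 55, and for the follicle genes from 0 to 1, both highest without miR-132 replicate 3, where Foxn1 passed; the cause was not tested. Replicate numbers are shared by the groups, and correlations of the deviations of same-numbered arrays ran from -0.03 to 0.16. Differently numbered arrays were not compared in this way, so a link between same-numbered arrays was not tested. With a replicate block 0 genes passed, and Foxn1 differed by -0.33 (limma's adjusted p of 0.672). The block moved the unadjusted limma p of Tchh from 0.515 to 0.316, of Krt27 from 0.613 to 0.193 and of Foxn1 from 0.0855 to 0.136. Quantile normalization without miR-132 replicate 3 and the background covariate were chosen after seeing the data. Signs turned for Lhx2, Lgr5, Sox9 and some list genes, Psors1c2 (-1.03 over all arrays), Vcan (0.33) and Krt71 (0.26) among them; the cause was not tested. With array weights, Lgr5 was 0.10, Sox9 0.0051, Krt15 0.0413, Crabp1 0.34 and Fgf7 0.0447. With the background covariate, Lgr5 was 0.0285, S100a3 -0.0158, Krt27 -0.0630, Krt25 -0.29, Krt28 -0.16, Krt71 -0.12 and Fgf7 0.0928. With the hybridisation controls as covariate, Lgr5 was 0.23, Krt27 -0.0714, Krt25 -0.17, Krt71 -0.26, Nfib 0.23, Krt15 0.91 and Vcan -0.0804. After median centring, Lhx2 was 0.0020, Lgr5 0.032, Krt15 0.026, Crabp1 0.038 and Fgf7 0.014. After quantile normalization, Lgr5 was 0.0214, Krt15 0.0877, Crabp1 0.11 and Fgf7 0.0404. With miR-132 replicate 3 also left out, Lgr5 was 0.14, Sox9 0.0288, Nfib 0.0244, Krt15 0.58, Crabp1 0.36 and Fgf7 0.18. Without miR-132 replicates 2 and 5, Lgr5 was 0.0487, Psors1c2 0.0293, S100a3 -0.13, Krt27 -0.15, Krt25 -0.44, Krt28 -0.24, Krt71 -0.31, Krt15 0.24, Crabp1 0.10 and Fgf7 0.0667.

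Leaving out single arrays moved Lhx2 from -0.073 to 0.017, Lgr5 from -0.12 to 0.092, S100a3 from -0.016 to 0.20, Krt86 from -0.18 to 0.0295, Krt27 from -0.0655 to 0.33, Krt25 from -0.30 to 0.35, Krt28 from -0.10 to 0.19, Krt71 from -0.25 to 0.56, Cd34 from -0.22 to 0.48, Krt15 from -0.85 to 0.62, Lgr4 from -0.018 to 0.30, Crabp1 from -0.40 to 0.47 and Fgf7 from -0.22 to 0.10. Without a change of sign it moved Sox9 from -0.20 to -0.01, Dlx3 from -0.15 to -0.07, Sox21 from 0.08 to 0.18, Nfib from -0.27 to -0.03, Bmpr1a from 0.02 to 0.23, Smo from -0.18 to -0.06, Vcan from 0.06 to 0.54 and Prdm1 from -0.75 to -0.29. Signal over background limits Lef1, Msx2 and Hoxc13, which could not be fitted under the filtered settings. Lhx2 and Dlx3, with means of 4.33 and 4.32, lay just above the filter and share this limit.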

Other observations

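Of the 4 measured keratin-associated protein genes of the hair shaft list, all below the level filter by their means, 3 stood out on 1 array. Genes of this family outside the list were not examined. The keratin-associated protein genes Krtap7-1, Krtap8-1 and Krtap11-1 were 6.99, 6.01 and 5.32 on control replicate 5. On the other 9 arrays they ranged from 3.01 to 5.08, from 3.17 to 4.63 and from 2.88 to 3.43. The fourth, Krtap3-1, was 3.73 on control replicate 5, within the 3.21 to 3.81 of the other arrays. The shaft keratin genes Krt32, Krt35, Krt36, Krt39, Krt40, Krt82 and Krt84 also lay within their ranges on the other arrays. Krt31, Krt33a, Krt33b, Krt34 and Krt86 had their highest values on control replicate 5, at 4.09, 4.45, 4.61, 4.48 and 4.83. Of these, Krt31, Krt33a and Krt34 lay below the level filter by their means. On control replicate 3, Krtap7-1 was 5.08 and Krtap8-1 4.01, and on miR-132 replicate 5 they were 4.27 and 4.63. Of 11 measured melanocyte markers 4 were above the level filter, all 4 averaging lower with miR-132 (median of -0.07), with 0 at an unadjusted limma p under 0.05. Dct, a pigment enzyme gene, was 4.90 and 4.88 on miR-132 replicates 2 and 5 beside 3.86 to 4.01 on replicates 1, 3 and 4, with controls at 4.16 to 4.64.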
